A study of Mus musculus with 8 samples.

Results

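The liver keeps its cholesterol steady through a small group of genes around the sterol regulatory element-binding proteins, and 8 of them are described here: Srebf2, Srebf1, Scap, Insig1, Insig2, Stard4, Mylip and Lrp1. They were chosen by name, as the 8 members of a set of regulators of these proteins and of genes for lipoprotein uptake, out of 19505 named genes on the array. Of these named genes, 16558 had a probe that was detected in liver. Agilent's design carried 18 probes for the 8 genes, all found under the current symbol, and all 18 were detected on at least 3 of the 4 arrays of 1 diet. For 15 of them that held on all 8 arrays.

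All mice were wild-type C57BL/6 males (C57BL/6J in the study's methods), 14 to 17 weeks old when feeding began, and carried no transgene. For 4 weeks, 4 mice ate standard chow (STD) and 4 ate an atherogenic (ATH) diet rich in fat and cholesterol, which also held cholic acid, a bile acid that helps cholesterol to be absorbed. RNA of whole liver from each mouse was labeled with Cy3 and hybridized to 1 array, which gave 4 arrays per diet. Each diet had a slide of its own (2 slides of 4 arrays), and an effect of the slide cannot be told apart from one of the diet. The labels do not say whether mice shared a cage, so p-values measure the spread between these mice and arrays.

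Cholesterol is sensed in the membrane of the endoplasmic reticulum. Srebf1 and Srebf2 encode precursors of transcription factors, and Scap is the escort that carries a precursor to the Golgi, where proteases free its active part. When sterols are plentiful, Insig1 and Insig2 hold Scap back, the factors stay inactive, and genes of cholesterol synthesis lose their activation. Oxysterols at the same time activate the liver X receptors (LXR), nuclear receptors that switch on genes of cholesterol export, Srebf1 and Mylip.

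Promoter sequences were available here for 7 of the 8 genes (12 promoters, from RefSeq for build GRCm38.p6) and Stard4 was the exception. The 250 bases before each start were searched on both strands for TCACNCCA, a form of the sterol regulatory element, for CCAAT, the box that the factor NF-Y binds, and for CACGTG, an E box. Over 32851 mouse promoters of the same length, these letters were found in 3.67%, 33.8% and 6.02%. Of the 12 promoters, the sterol regulatory element was in that of Srebf2 alone, starting 162 bases before the transcription start, with a CCAAT box starting 135 bases before it. The CCAAT box was in 6 of the 12 promoters, of Insig1, Insig2, Mylip, Srebf1 and Srebf2, and the E box in 2, of Insig1 and Scap. In Insig1 they started 216 and 101 bases before the start. The windows of Srebf2 (chr15:82147019-82147268, plus strand) and Insig1 (chr5:28071162-28071411, plus strand) are shown because both genes were lower on the ATH diet, with the matched letters in capitals. Scap was lower too and is not shown. The CCAAT box was also in Insig2, Srebf1 and Mylip, none of which was called lower. A match describes the letters and not a bound site.
Srebf2: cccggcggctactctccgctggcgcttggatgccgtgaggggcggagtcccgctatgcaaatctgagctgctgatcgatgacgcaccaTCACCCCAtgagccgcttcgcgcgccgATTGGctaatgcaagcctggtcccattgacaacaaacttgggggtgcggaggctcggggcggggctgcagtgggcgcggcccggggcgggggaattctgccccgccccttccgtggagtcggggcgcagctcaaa
Insig1: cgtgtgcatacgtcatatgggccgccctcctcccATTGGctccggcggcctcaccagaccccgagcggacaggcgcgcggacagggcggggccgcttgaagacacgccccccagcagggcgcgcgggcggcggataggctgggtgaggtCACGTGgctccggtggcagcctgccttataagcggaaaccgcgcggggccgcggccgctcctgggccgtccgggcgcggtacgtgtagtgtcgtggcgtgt

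Values are log2 of the background-subtracted probe signal minus the 75th percentile of the same array, so that 0 is that percentile and negative values are dimmer probes. They compare arrays for 1 probe and not the level of 1 gene with another. Each gene was read from its brightest detected probe over all 8 arrays, and a diet effect is the ATH mean minus the STD mean. Called means an adjusted p under 5% by limma with Benjamini-Hochberg adjustment over all 31056 detected probes.

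On the ATH diet Srebf2, Scap, Insig1 and Stard4 were lower and Mylip was higher, while Srebf1, Insig2 and Lrp1 did not pass the test. Thus 4 of the 8 genes were called lower, against 4.94% of all detected probes, and 1 was called higher, against 3.06%. At 1%, 2 genes were called, Insig1 and Stard4, against 0.528% of probes in either direction. The arrays of the diets did not overlap for the same 4 lower genes, as for 13.8% of all probes in that direction. They did not overlap upward for Mylip, as for 6.01% of probes. The median diet effect was -0.51 over the 8 genes and -0.15 over all detected probes.

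**Figure D1:**
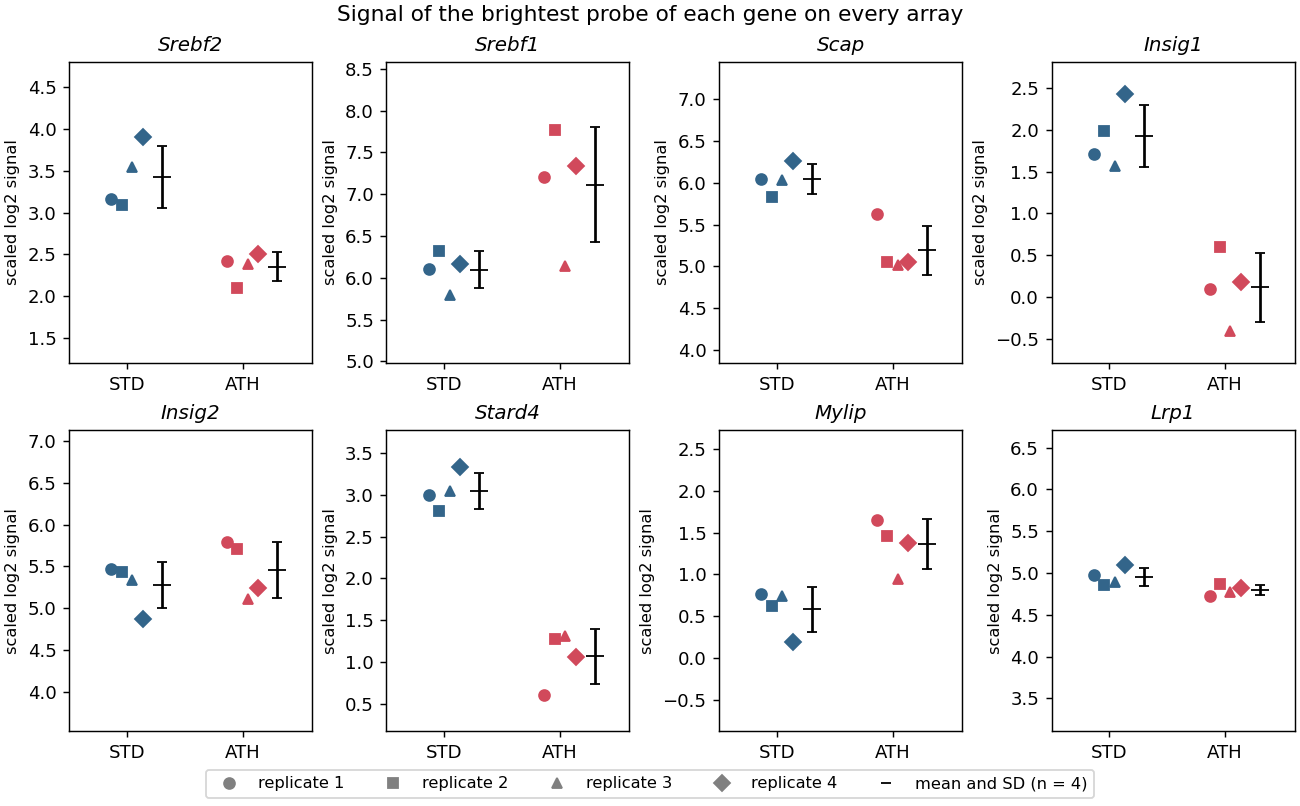
Scaled log2 signal (vertical axis, of equal span in each panel) of the brightest probe of each gene on the 4 STD and the 4 ATH arrays; bars are the mean and SD. The ATH arrays lie below every STD array for Srebf2, Scap, Insig1 and Stard4 and above them for Mylip, and ATH replicate 3 lies among the STD arrays for Srebf1.

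Of the transcription factor genes, Srebf2, which encodes the main activator of cholesterol synthesis, fell. Its brightest probe (chr15:82289660-82289719 in build mm7, plus strand) read 3.16, 3.09, 3.54 and 3.90 on STD replicates 1 to 4 and 2.42, 2.10, 2.39 and 2.51 on ATH replicates 1 to 4. All ATH arrays lay below the lowest STD array. The diet effect was -1.07 (SE 0.20, limma adjusted p = 0.0215), a 2.10-fold lower signal. The call was lost with spike-in scaling (-0.76, adjusted p = 0.0656), without scaling (-0.62, adjusted p = 0.0626) and when STD replicate 3 (-1.03, adjusted p = 0.0636), ATH replicate 3 (-1.08, adjusted p = 0.055) or ATH replicate 4 (-1.12, adjusted p = 0.0512) was left out. The other 3 Srebf2 probes had the same sign, with effects of -0.75, -0.87 and -1.25 and adjusted p of 0.0307, 0.0891 and 0.0709, so that 2 of the 4 probes passed. The probe at -1.25 was dim, with STD and ATH means of -4.17 and -5.42.

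Srebf1 encodes SREBP-1, whose 1c form drives fatty acid synthesis. Its only probe (chr11:60281270-60281329, minus strand), which was not assigned to an isoform here, read 6.10, 6.32, 5.79 and 6.17 on the STD arrays and 7.20, 7.77, 6.14 and 7.34 on the ATH arrays. Of the ATH arrays, 3 lay above every STD array and replicate 3 lay among them. The effect of 1.02 (SE 0.31, 95% confidence interval 0.31 to 1.73) missed the threshold with an adjusted p of 0.077. Without ATH replicate 3 it was 1.34 and passed (adjusted p = 0.0247). It also passed with normexp background correction (1.05, adjusted p = 0.0333), quantile normalization (1.32, adjusted p = 0.0332), scaling by spike-in probes (1.33, adjusted p = 0.0309) and no scaling (1.46, adjusted p = 0.0147).

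Scap, the escort that both precursors need, was lower on the ATH diet. Its only probe (chr9:110082822-110082881, plus strand) read 6.05, 5.83, 6.04 and 6.27 on the STD arrays and 5.63, 5.06, 5.02 and 5.06 on the ATH arrays. ATH replicate 1 stood apart from the other 3 ATH arrays and still lay below every STD array. The effect was -0.85 (SE 0.17, adjusted p = 0.0277), a 1.81-fold lower signal. In a fit with replicates as blocks the adjusted p was 0.0507, and with quantile normalization, spike-in scaling and no scaling the effects were -0.56, -0.55 and -0.41, none of which passed (adjusted p = 0.0631, 0.098 and 0.101).

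The retention proteins differed. Insig1, itself a target of the factors it holds back, read 1.72, 1.99, 1.57 and 2.43 on the STD arrays and 0.10, 0.60, -0.40 and 0.18 on the ATH arrays at its brightest probe (chr5:27110161-27110220, plus strand). No array of 1 diet reached the range of the other. The effect was -1.81 (SE 0.25, adjusted p = 0.00965), a 3.51-fold lower signal.

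A second Insig1 probe matched spliced RNA, since its 60 bases span 473 bases of the genome (chr5:27107061-27107533 in build mm7, plus strand). Its sequence is shown because it reads a different stretch of the transcript from the brightest probe.
Insig1 A_52_P393392: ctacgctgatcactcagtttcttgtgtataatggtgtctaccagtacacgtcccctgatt
This probe read 0.35, 0.51, 0.58 and 1.30 on the STD arrays and -0.55, -0.66, -1.13 and -1.05 on the ATH arrays. Its effect was -1.53 (SE 0.23, adjusted p = 0.0131), and again the diets did not overlap.

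Insig2, which in liver can be made without active sterol regulatory element-binding protein, showed no call at any of 3 probes. The brightest (chr1:121175294-121175353, minus strand) read 5.47, 5.43, 5.34 and 4.87 on the STD arrays and 5.79, 5.71, 5.11 and 5.24 on the ATH arrays, and the diets overlapped. The effect was 0.18 (95% confidence interval -0.28 to 0.65, adjusted p = 0.588). It was 0.47 with quantile normalization (adjusted p = 0.114), 0.49 with spike-in scaling (adjusted p = 0.129) and 0.63 without scaling, where it passed (adjusted p = 0.0429). The next probe had an effect of 0.15 (adjusted p = 0.633). The last probe lies on the opposite strand of the same chromosome (chr1:121201854-121201913), was well above background on 3 arrays of each diet and had an effect of -0.21 (adjusted p = 0.597). It was designed from a separate transcript record, and whether it reads Insig2 mRNA was not tested.

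The within-array difference between Insig1 and Insig2, which no scaling by a constant can change, ran from -3.77 to -2.44 on the STD arrays and from -5.69 to -5.06 on the ATH arrays. It moved by -1.99 (exact permutation test over 70 assignments of the diets, two-sided, p = 0.0286, adjusted over 4 pairs 0.0286). That p is the smallest the design allows. Srebf1 minus Srebf2 moved the other way, by 2.09, from 2.25 to 3.22 on the STD arrays to 3.75 to 5.67 on the ATH arrays (exact permutation test, adjusted p = 0.0286). In both pairs the ranges of the single genes had already fixed that the diets separate. These p-values therefore add nothing to the calls of Insig1 and Srebf2. When the diets were swapped only within same-numbered arrays (16 assignments, replicate block), each of the 4 pairs tested had an exact permutation p of 0.125, the smallest that test allows, so no pair can pass with the pairing kept.

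**Figure D2:**
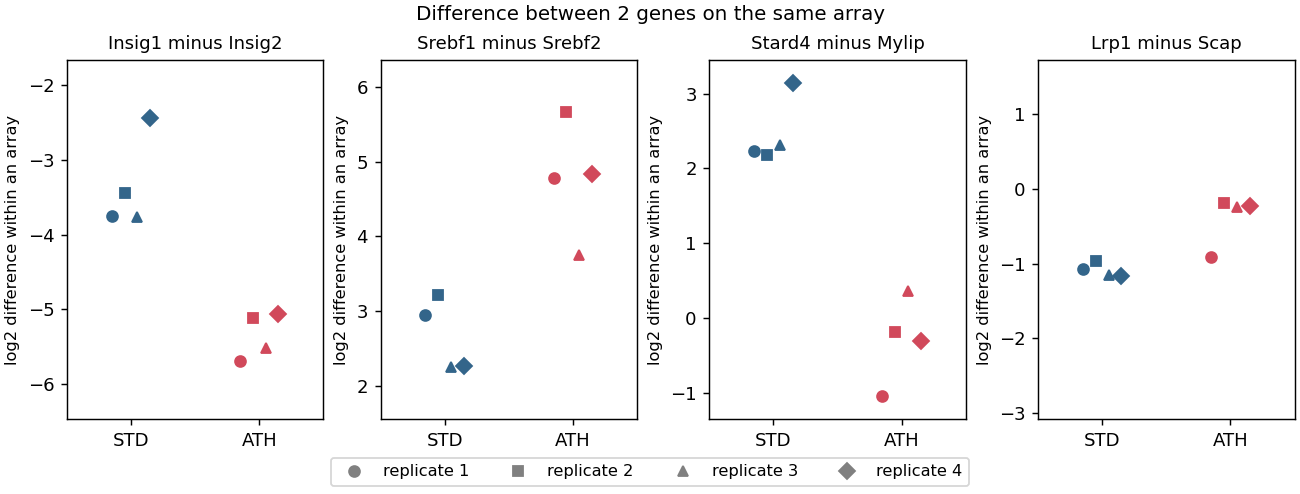
Difference in log2 signal between 2 genes on the same array (vertical axis, of equal span in each panel) for the 4 pairs that were tested, with 1 point per array. The diets are separated in all 4 pairs, most narrowly for Lrp1 minus Scap, where ATH replicate 1 at -0.91 lies just above the highest STD array at -0.97.

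Stard4, a soluble protein that moves cholesterol between membranes and is a target of SREBP-2, had the largest effect of the 8 genes. Its brightest probe (chr18:33577002-33577061, minus strand) read 3.0, 2.80, 3.05 and 3.34 on the STD arrays and 0.61, 1.28, 1.32 and 1.06 on the ATH arrays. The lowest STD array was well above the highest ATH array. The effect was -1.98 (SE 0.19, adjusted p = 0.00364), a 3.94-fold lower signal. Both other probes, which span splice junctions, gave -1.51 and -1.59 (adjusted p = 0.00548 and 0.00643), with no overlap of the diets.

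Mylip encodes an E3 ubiquitin ligase that marks lipoprotein receptors for degradation and is switched on by LXR. Its brightest probe (chr13:44861360-44861419, plus strand) read 0.77, 0.62, 0.74 and 0.20 on the STD arrays and 1.65, 1.46, 0.95 and 1.37 on the ATH arrays. ATH replicate 3 was the lowest ATH array and lay just above the highest STD array. The effect was 0.78 (SE 0.19, adjusted p = 0.0443), a 1.72-fold higher signal. This call was lost with the replicate block (adjusted p = 0.0639), with no detection filter (adjusted p = 0.0709) and when any array other than ATH replicate 3 was left out (effects 0.65 to 0.84, adjusted p from 0.0575 to 0.104). A second, dim probe was not well above background on any STD array and was above it on 3 ATH arrays. Its effect was 0.42 (confidence interval -0.19 to 1.03, limma adjusted p = 0.326) and the diets overlapped, so no change was shown. The ATH mean lay 1.16-fold above the detection floor of the STD arrays, a value for which no error was estimated.

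Stard4 minus Mylip moved by -2.76, from between 2.18 and 3.14 on the STD arrays to between -1.05 and 0.37 on the ATH arrays (exact permutation test, adjusted p = 0.0286). Since each gene alone separated the diets, in opposite directions, their difference had to do so too, and this p adds nothing to the 2 calls.

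Lrp1, a large endocytic receptor that takes up lipoprotein remnants, varied little. Its brightest probe (chr10:127039905-127039964, minus strand) read 4.98, 4.86, 4.89 and 5.10 on the STD arrays and 4.72, 4.87, 4.78 and 4.82 on the ATH arrays. The effect was -0.16 (95% confidence interval -0.41 to 0.10, adjusted p = 0.382), close to the median of all probes. Its sign turned under quantile normalization (0.10), spike-in scaling (0.15) and no scaling (0.29), without a call in any of them. The second probe had an effect of 0.09 (adjusted p = 0.817). Lrp1 minus Scap rose by 0.70 between the diets, from between -1.17 and -0.97 to between -0.91 and -0.19 (exact permutation test, adjusted p = 0.0286). That p is again the smallest the design allows. Scap alone had already separated the diets, with an effect of -0.85, so the rise is mostly that of the Scap call seen again.

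**Figure D3:**
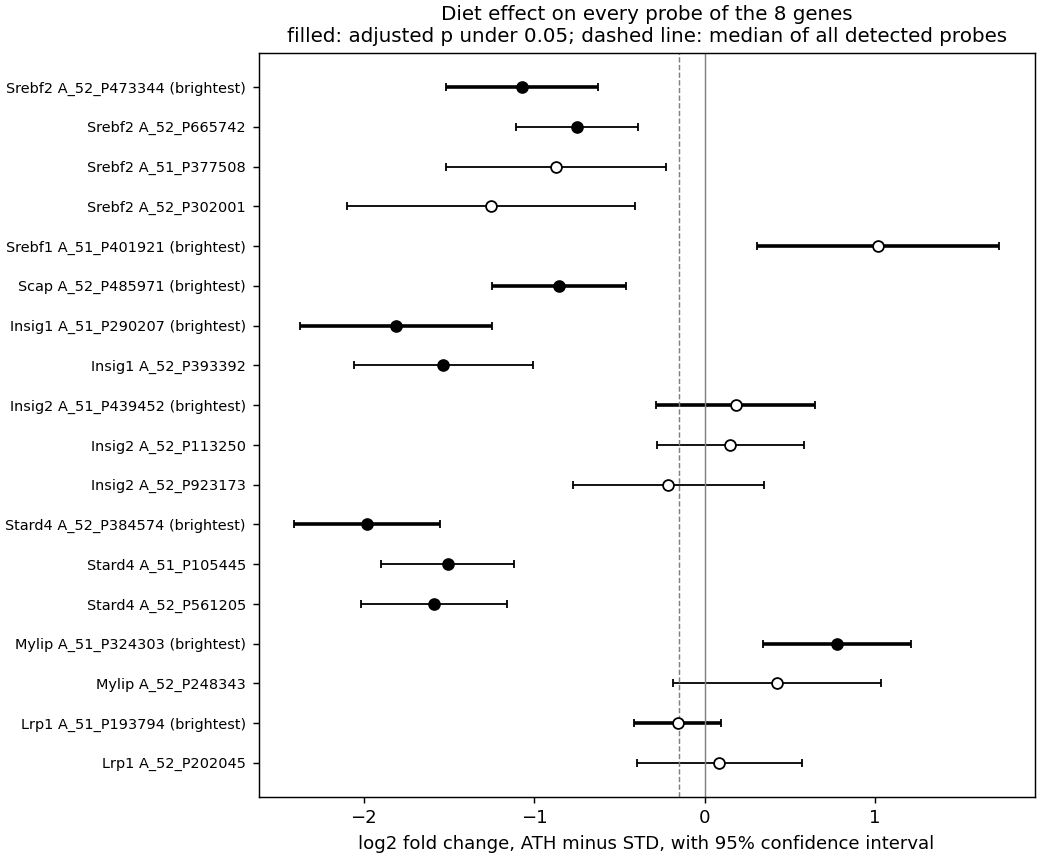
Diet effect (log2, ATH minus STD) of all 18 probes with its 95% confidence interval; thick lines mark the brightest probe of a gene and filled points an adjusted p under 5%. All probes of Srebf2, Insig1 and Stard4 lie below 0, and 8 probes were called lower and 1 higher.

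Arrays of a diet differed from each other in a way that several of these genes shared. Among the STD arrays, replicate 4 had the highest signal for Srebf2, Scap, Insig1, Stard4 and Lrp1 and the lowest for Insig2 and Mylip. The mean over 21 cholesterol synthesis enzymes was also highest on that array, at 4.68 against 3.49 to 3.97 on the other STD arrays. Among the ATH arrays, replicate 3 had the lowest signal for Srebf1, Insig2, Mylip, Insig1 and Scap, though for Scap only narrowly (5.02 against 5.06 on the next array). It had the highest signal for Stard4 (1.32) and lay between the other ATH arrays for Srebf2 and Lrp1. On ATH replicate 3 the mean over 12 LXR targets was the lowest of the ATH arrays (2.67, others 2.79 to 3.03), while that over 16 lipogenic targets was the highest (2.71, others 2.45 to 2.59).

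The genes that act with these regulators were grouped into 6 lists, none of which holds any of the 8 genes. Of 21 cholesterol synthesis enzymes, which SREBP-2 activates, 20 were called lower and 0 higher, the same counts as at an unadjusted p under 5% by limma (19.3% of all probes lower and 9.05% higher at that threshold), with a median effect of -2.08 against -0.15 over all probes. The largest decrease was in Sqle, squalene epoxidase, from 3.05 ± 1.16 to -2.31 ± 1.09 (SD, n = 4; effect -5.35, adjusted p = 0.00663). Idi1, the isopentenyl diphosphate isomerase, fell by 3.46 (adjusted p = 0.00423). Tm7sf2, a sterol reductase, fell by 2.38 and had the smallest adjusted p of the list (0.00256). The exception was Ggps1, which makes geranylgeranyl diphosphate rather than sterols, at 0.04.

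Of 16 lipogenic targets of SREBP-1c, 6 were called lower, 2 higher and 8 not called, against 4.94% of all probes lower and 3.06% higher. At an unadjusted p under 5% by limma, 8 were lower and 3 higher, against 19.3% and 9.05% of all probes. The median effect was -0.37. Without scaling that median was 0.07. Scd1, the stearoyl-CoA desaturase, rose by 1.36 (adjusted p = 0.00518). Acacb, the acetyl-CoA carboxylase that restrains fatty acid oxidation, fell by 1.80 (adjusted p = 0.00585), and Acss2, an acetyl-CoA synthetase, fell by 1.78 (adjusted p = 0.012). The list thus moved in both directions beside a Srebf1 effect of 1.02 that was not called.

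Of 12 LXR targets, 7 were called higher and 0 lower (8 and 0 at an unadjusted p under 5% by limma, against 9.05% and 19.3% of all probes), with a median of 1.10. Lpl, lipoprotein lipase, and Abcg1, a cholesterol exporter, rose by 2.31 and 2.28 (adjusted p = 0.00364 for each). Mylip, at 0.78, and Srebf1, at 1.02, lay below that median.

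The machinery that cleaves, transports and degrades the precursors and Scap changed less. Of 23 such genes, 2 were called lower and 0 higher (5 and 0 at an unadjusted p under 5% by limma, against 19.3% and 9.05% of all probes), and the median of -0.17 was close to that of all probes. Paqr3, which anchors Scap at the Golgi, fell by 0.63 (adjusted p = 0.0363). With the replicate block it did not pass (adjusted p = 0.0599).

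Among 17 detected genes of sterol transfer other than Stard4, 2 were called higher and 1 lower, with a median of -0.09. Over all probes 3.06% were called higher and 4.94% lower. At an unadjusted p under 5% by limma, 3 of these genes were higher and 1 was lower, against 9.05% and 19.3% of all probes. Gramd1b, which carries cholesterol from the plasma membrane to the endoplasmic reticulum, rose by 3.01 (adjusted p = 0.00101). Soat1, which esterifies cholesterol, rose by 2.03 (adjusted p = 0.0388, and 0.0577 with the replicate block). Tmem97, a sterol-binding membrane protein, fell by 1.07 (adjusted p = 0.0173).

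Among 17 detected receptors and partners of lipoprotein uptake other than Lrp1, 1 was called higher and 1 lower, with a median of -0.15. Over all probes 3.06% were called higher and 4.94% lower. At an unadjusted p under 5% by limma, 1 of these genes was higher and 5 were lower, against 9.05% and 19.3% of all probes. Scarb1, the high-density lipoprotein receptor, rose by 0.69 (adjusted p = 0.0208). Sdc1, a heparan sulfate proteoglycan that binds remnants, fell by 0.74 (adjusted p = 0.0329). With the replicate block neither passed (adjusted p = 0.0523 and 0.0537).

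**Figure D4:**
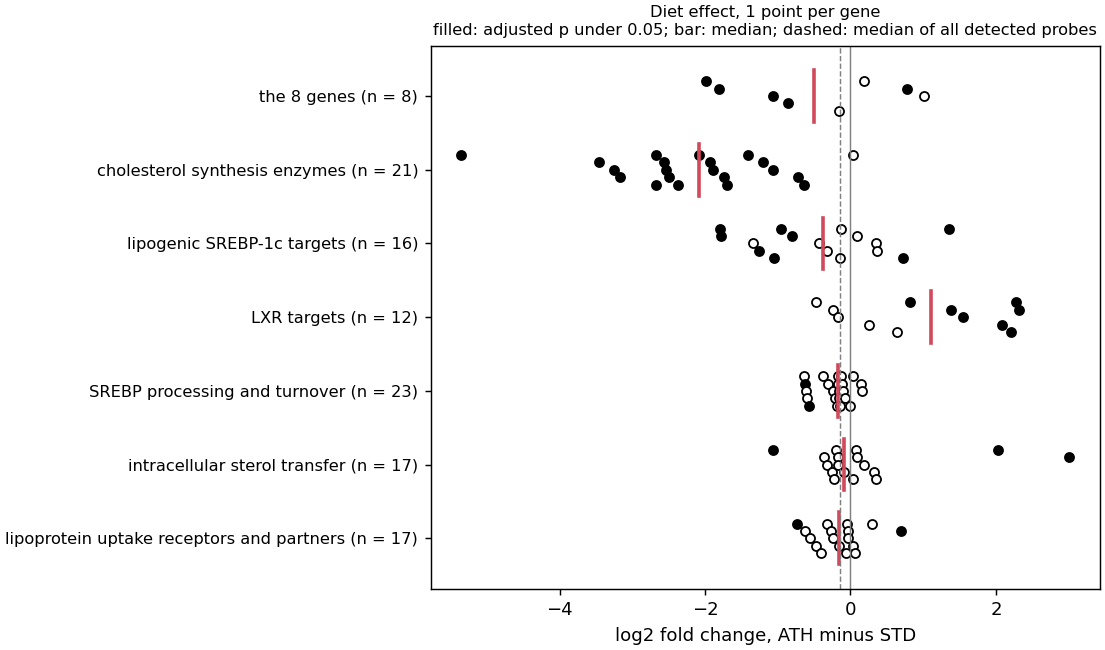
Diet effect (log2, ATH minus STD) of the 8 genes and of 6 lists of related genes, with 1 point per gene; filled points have an adjusted p under 5% and the red bar is the median. The cholesterol synthesis enzymes lie almost all below 0 (median -2.08), most LXR targets lie above it (median 1.10), and the other 4 lists have medians from -0.37 to -0.09.

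For each gene, the genes with the most alike profile over the 8 arrays were found by the root mean square difference of centred log2 values, out of 16549 other named genes. For Insig1 the nearest was Hsd17b7, an enzyme of cholesterol synthesis (0.21), then Cth and Paqr9. For Srebf2 they included Acvr2b (0.13) and Bhmt (0.14). For Stard4 they were Grip2, Tubb2b and Vmn1r237 (0.11 to 0.21), and for Scap they were 4930402D18Rik, Fbxo17 and Gabrr1 (0.10 to 0.11). For Srebf1 they were Ccm2l, Mcm6 and Crym (0.28 to 0.29), the least alike of the sets. For Mylip they were Cdh5, Prrg4 and Fyn (0.15 to 0.16). For Insig2 they were Ermap, Bcl7a and Cnrip1 (0.06 to 0.10), and for Lrp1 they were Nrd1, Tmem161a and Sec13 (0.03 to 0.05). For a gene with a diet effect, this likeness rests mostly on the step between 2 groups.

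Whole liver holds several cell types, and fewer cells of a type cannot be told apart from less RNA per cell. Of 15 hepatocyte markers 4 were called lower, and the list mean ranged from 7.73 to 7.79 on the STD arrays and from 7.12 to 7.49 on the ATH arrays. Of 12 macrophage markers 7 were called higher, and the list mean ranged from 1.44 to 1.77 and from 2.13 to 4.18. Markers called among stellate, endothelial and bile duct cells were 1 higher of 11, of 8 and of 5, and 0 of 10 lymphocyte markers were called by limma. Over all detected probes 3.06% were called higher and 4.94% lower. At an unadjusted p under 5% by limma, 9.05% of all probes were higher and 19.3% lower. At that threshold 10 hepatocyte markers were lower, and 10 macrophage, 6 stellate, 2 endothelial and 2 bile duct markers were higher. Of the lymphocyte markers, 4 were higher and 1 lower. The part of these shifts in the effects on the 8 genes was not tested. The median effect was -0.42 over the hepatocyte markers (0.03 without scaling) and 1.65 over the macrophage markers.

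The 75th percentile of the log2 signal was 0.45 higher on the ATH arrays and the spike-in probes were 0.14 higher, so the direction of small effects depended on the scaling. Of 2483 probes called, 949 were higher. The higher calls were 1043 of 1922 with quantile normalization, 1028 of 1870 with median scaling, 1210 of 6394 with normexp, 2468 of 2865 with spike-in scaling and 6990 of 7364 without scaling. Over all probes, the median effect moved to 0.30 when arrays were left unscaled and to 0.16 when the spike-in probes set the scale. Stard4 and Insig1 were called lower and Mylip higher under each of these scalings.

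**Figure D5:**
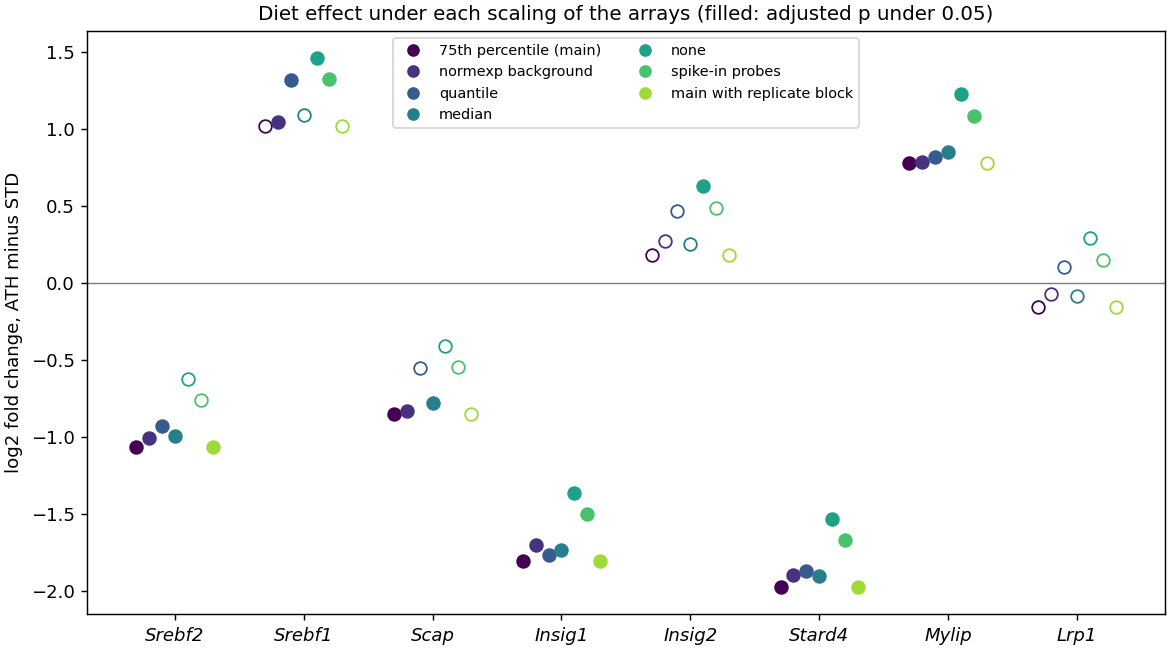
Diet effect (log2, ATH minus STD) of the brightest probe of each gene under 6 treatments of the array signal and with replicates as blocks; filled points have an adjusted p under 5%. Insig1 and Stard4 stay between -1.98 and -1.36 and are called in all 7, and Lrp1 changes sign.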

How the data were processed

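Liver RNA from 8 mice, 4 on each diet by the labels, was measured on Agilent 4x44K one-color arrays. The authors ran Agilent Feature Extraction version 9.5 (build mm7 for probe positions), and in the deposited output each spot's intensity had its background subtracted and a spatial trend removed, with no scaling across arrays. Other deposited columns mark spots. A table of log2 values that the authors made in GeneSpring was deposited too, whose scaling and baseline are not given in the sources used here. For 100% of the 31056 detected probes, its values matched the scanner's log2 signal plus a constant per probe and per array, within 0.001. It served as an alternative that is not independent of the values used here. The Insig1 effect, for example, was -1.809 there against -1.81.

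Of 41174 probes, 31056 were detected: well above background, positive and free of outlier marks in 3 or more of a diet's 4 arrays. Spots of a probe were averaged and each array's 75th percentile was subtracted. Limma 3.58.1 in R 4.3.3 (eBayes after lmFit, two-sided) tested the diets, on 4 and 4 arrays, with Benjamini-Hochberg adjustment over all detected probes. A call needed an adjusted p under 5%, and counts at 1%, the threshold of the methods, are given beside it. Exact permutation tests over 70 assignments compared 4 pairs of genes. Python 3.11.15 with numpy 2.4.6, scipy 1.17.1, pandas 2.3.3 and matplotlib 3.10.9 was used. The number of arrays limits the precision.

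The members, the lists and the tests were chosen with earlier results of these data known. The named genes were all 8 members with every probe, up to 4 called genes of each of 6 lists (the 2 with the smallest adjusted p and the 2 with the largest effect), and the 3 most alike genes of each member. Some genes that this rule names are not reported here. Ggps1 was named after its value was seen. Motifs were searched after the diet effects were known. Genes were named by accession, symbol or synonym through a RefSeq table for GRCm38.p6, and 8455 probes kept the file's name only. No exon or UTR was assigned, as no annotation of mm7 was used here.

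Same-numbered arrays sat at the same place on the 2 slides. Their deviations from the mean of each diet had correlations of 0.1001, 0.2296, 0.1815 and 0.1766, each over 0.1, and a paired fit (replicate block) was therefore added. The steps were tested on simulated data. Alternatives covered background correction (normexp, offset 50), scaling, the deposited log2 values, the detection filter, spots with outlier marks and the threshold. They also covered a test of unequal variances like that of the methods, the probe per gene and each array left out in turn. The count over all 18 probes and the blocked test of gene pairs were added after seeing the data.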

Additional observations from a re-analysis of the deposited data

Results flagged for a closer look

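In each group of 4 arrays, the gap between the highest or lowest array and its neighbour was set against the range of the group, for all 18 probes and the named genes of the lists. By Dixon's 95% critical value, which chance passes in about 1 of 20 groups, 4 of 66 groups held an array that stood apart. ATH replicate 1 was the highest for Scap, at 5.63 against 5.02 to 5.06 on the other ATH arrays (ratio 0.943). The same array was the highest for the dim Insig2 probe A_52_P923173, at -4.78 against -5.54 to -5.47 (ratio 0.91), and the lowest for the dim Srebf2 probe A_52_P302001, at -6.28 against -5.22 to -5.04 (ratio 0.857). STD replicate 1 was the lowest for the second Lrp1 probe A_52_P202045, at 0.09 against 0.33 to 0.37 (ratio 0.875). The cause was not tested.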

How the results depend on the processing

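Insig1 and Stard4 kept their call under every alternative tried except the methods' test of unequal variances (adjusted p = 0.0723 and 0.0551), which called 0 of the 8 genes lower or higher and 22 probes in all, against 2483. Of the 8 genes, 4 were called lower and 1 higher. The lower count was 2 with no scaling, with spike-in scaling and at 1%, and 2 to 4 with each array left out. The higher count was 2 with normexp, quantile normalization and spike-in scaling, 3 with no scaling (Insig2 also passed, at 0.628 with adjusted p = 0.0429), 0 with no detection filter, with the replicate block and at 1%, and 0 to 2 with each array left out. Leaving out replicate 3 of either diet, or ATH replicate 4, lost both Srebf2 and Scap, leaving out STD replicate 1 or 4 lost Scap, and Mylip was kept in 1 of the 8 cases. Over all probes the count was 6394 with normexp, 7364 with no scaling, 1085 with no detection filter, 1322 with the replicate block, 164 at 1% and from 394 (without STD replicate 3) to 3979 (without ATH replicate 2) with each array left out. The effect on Lrp1 turned to 0.101 with quantile normalization, 0.289 with no scaling and 0.152 with spike-in scaling. With the replicate block, Scap (adjusted p = 0.0507) and Mylip lost their call and the other 3 kept it. The shifts of the 4 pairs kept their sign in all alternatives. With each array left out, they ran from -2.13 to -1.69 for Insig1 minus Insig2, from 1.78 to 2.42 for Srebf1 minus Srebf2, from -2.98 to -2.51 for Stard4 minus Mylip and from 0.63 to 0.87 for Lrp1 minus Scap. Their p is not read there, since with 3 against 4 arrays it lay at the lowest steps the design allows. With the replicate block (added after seeing the data) the shifts were the same, -1.99, 2.09, -2.76 and 0.70, and the smallest possible p is 0.125. Over all 18 probes, 8 were called lower and 1 higher. Across the alternatives the calls ranged from 0 to 20 of the cholesterol synthesis enzymes lower, 0 to 9 of the LXR targets higher, 0 to 8 of the lipogenic targets lower and 0 to 4 higher, 0 to 4 of the processing genes lower and 0 to 3 higher, 0 to 1 of the sterol transfer genes lower and 1 to 6 higher, and 0 to 2 of the uptake genes lower and 0 to 3 higher. For the cholesterol synthesis enzymes called lower and the LXR targets called higher, the count of 0 came only from the test of unequal variances. Their next lowest counts were 8 and 4, at 1%. Without scaling, the medians were 0.28 for the processing genes, 0.36 for the sterol transfer genes and 0.30 for the uptake genes. The cause of these changes was not tested. Slide and diet cannot be told apart, and 3 probes were near background on some arrays.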
